A study of Mus musculus with 9 samples.

Results

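The Sstr2/Grem1 neurons were 169 single cells of the mouse ventral midbrain that carried tdTomato and GFP, held little or no RNA of the dopamine transporter gene Slc6a3, and had more counts of Sstr2, Ptprq, Grem1 and Crhbp than of Itga11, Met, Slc26a7 and Prdm8. They were selected on these 9 genes among wells that passed limits on detected genes (2000 or more), total counts (up to 50000) and the mitochondrial share (under 15%), which 2034 of 3455 wells did. On the plate labelled VGAT + PITX3 E16, 76 of 304 kept wells were Sstr2/Grem1 neurons, a share of 25% (exact Clopper-Pearson 95% interval 20.2 to 30.3). On the plate labelled VGAT + PITX3 P0 they were 93 of 271, a share of 34.3% (28.7 to 40.3). Intervals on shares and ratios cover counting error only, since each stage had 1 such plate. The rule uses raw counts, and P0 cells held fewer counts than E16 cells. When at least 2 counts more of the first set were required, 69 wells at E16 and 66 at P0 were chosen.

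The rest of these plates served for comparison. Wells with at most 2 Slc6a3 counts in which the opposite set of 4 genes was higher are called Met/Itga11 neurons (74 at E16 and 51 at P0). Wells with equal sums were left out (25 and 35). Wells with more than 2 Slc6a3 counts are called Slc6a3-high neurons (129 and 92). The choice used measured counts of these cells. The 8 genes of the rule, Slc6a3, and the additional markers Ebf2 and Avpr1a are therefore given as values without a test, and so are all differences from the Met/Itga11 and Slc6a3-high neurons.

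Cells were sorted from the ventral midbrain of untreated VGAT-Cre:Ai14:Pitx3-GFP mice at embryonic day 16 (E16) and postnatal day 0 (P0), and every group carried all 3 alleles. VGAT-Cre removes a stop in front of tdTomato in the Ai14 allele, so tdTomato stays on in any cell that has ever used the vesicular GABA transporter gene Slc32a1 (VGAT), whether or not it does so later. GFP reports Pitx3, a transcription factor of midbrain dopamine (mDA) neurons. The plates comprised 4 of tdTomato-sorted cells at E16 and 3 at P0 (VGAT plates), and 1 of double-positive cells at each stage. Brains came from several litters at each stage, no well can be traced to an animal, and p-values over plates measure only the spread between plates.

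Midbrain dopamine neurons arise from floor plate progenitors under Lmx1a, Lmx1b, Foxa2 and Nr4a2. Midbrain GABA neurons arise more laterally under Gata2, Gata3, Tal1 and Sox14. Release of GABA needs glutamate decarboxylase (Gad1 or Gad2) and the vesicular transporter Slc32a1. Neurons of the ventral tegmental area (VTA), medial to the substantia nigra pars compacta (SNc), include cells that load glutamate through Slc17a6 (VGLUT2) beside or in place of dopamine. Of the genes that chose the cells, Sstr2 encodes a somatostatin receptor, Grem1 a secreted antagonist of bone morphogenetic proteins (BMPs), Crhbp a secreted binding protein of corticotropin-releasing hormone, and Ptprq a receptor-type phosphatase known from the hair bundle of the inner ear.

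The promoters of 3 genes of the rule are shown because these genes chose the cells, and those of Gad2 and Gad1 because these enzymes of one reaction were at opposite levels in them. Each run has 250 bases before and 50 bases from the RefSeq gene start (GRCm38.p6), written 5′ to 3′ on the strand of the gene, with motif matches in capitals. Ptprq is named only.

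Sstr2 promoter, chr11:113619077-113619376, plus strand: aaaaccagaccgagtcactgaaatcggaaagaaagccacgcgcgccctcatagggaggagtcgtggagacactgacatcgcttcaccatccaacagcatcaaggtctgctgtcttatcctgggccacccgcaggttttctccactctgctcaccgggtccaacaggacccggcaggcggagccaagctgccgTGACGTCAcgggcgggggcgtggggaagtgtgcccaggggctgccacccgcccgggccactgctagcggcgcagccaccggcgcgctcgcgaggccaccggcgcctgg

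Grem1 promoter, chr2:113758599-113758898, minus strand: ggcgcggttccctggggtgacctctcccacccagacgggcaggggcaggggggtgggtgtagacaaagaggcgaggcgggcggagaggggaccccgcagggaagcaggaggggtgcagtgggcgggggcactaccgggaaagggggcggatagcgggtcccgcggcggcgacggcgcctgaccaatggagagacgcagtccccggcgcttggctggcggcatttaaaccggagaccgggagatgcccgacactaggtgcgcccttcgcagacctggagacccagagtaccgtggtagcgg

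Crhbp promoter, chr13:95444782-95445081, minus strand: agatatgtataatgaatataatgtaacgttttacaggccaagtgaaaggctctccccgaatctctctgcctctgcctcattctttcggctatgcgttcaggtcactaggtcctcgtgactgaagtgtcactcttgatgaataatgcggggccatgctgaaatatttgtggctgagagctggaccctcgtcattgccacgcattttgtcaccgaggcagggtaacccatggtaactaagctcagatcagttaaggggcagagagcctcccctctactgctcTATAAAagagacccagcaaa

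Gad2 promoter, chr2:22622077-22622376, plus strand: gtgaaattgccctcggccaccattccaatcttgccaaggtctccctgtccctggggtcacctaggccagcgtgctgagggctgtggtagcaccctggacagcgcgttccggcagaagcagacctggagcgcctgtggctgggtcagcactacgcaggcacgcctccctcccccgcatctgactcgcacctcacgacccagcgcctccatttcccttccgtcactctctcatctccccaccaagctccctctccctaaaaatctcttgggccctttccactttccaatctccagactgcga

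Gad1 promoter, chr2:70561879-70562178, plus strand: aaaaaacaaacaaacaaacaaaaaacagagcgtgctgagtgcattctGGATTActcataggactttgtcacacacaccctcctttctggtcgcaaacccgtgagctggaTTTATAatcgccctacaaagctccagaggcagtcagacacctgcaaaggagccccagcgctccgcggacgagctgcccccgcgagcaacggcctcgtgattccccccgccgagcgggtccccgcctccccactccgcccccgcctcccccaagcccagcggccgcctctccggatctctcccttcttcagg

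Both strands were searched for 7 motifs, and the share of all 32851 promoters of this length that hold each is given with it. The EBF palindrome was in 0.904%. The cAMP response element, TGACGTCA, was in 1.79%, and the NBRE of Nr4a factors, AAAGGTCA, in 1.51%. The homeodomain core, TAATTA, was in 5.29% of promoters. The letters bound by PITX and OTX factors, GGATTA, were in 7.06% of promoters. Those bound by GATA factors, AGATAA, were in 11.2% of promoters. The TATA box, TATAAA, was in 13.6% of promoters. Sstr2 had the cAMP response element with its first base at -58 from the start. Crhbp had the TATA box letters at +30. Gad1 had GGATTA at -203 and, on the opposite strand, TATAAA at -141, which reads TTTATA in the printed run. Neither Grem1 nor Gad2 held any of the 7 motifs in this window, and no matches overlapped. A match is a description of the letters only.

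Depth and sort were looked at first. The Sstr2/Grem1 neurons gave 1022368 counts at E16 and 757822 at P0, with medians per cell of 13679 and 7445 counts and of 4797.5 and 3293 genes. Levels below are CPM, the counts summed over a group of cells on a plate and scaled to a total of 1000000 nuclear gene counts. The VGAT plates held 44 to 304 kept cells and 1435919 to 5408710 counts. Pitx3, the gene behind the GFP gate, had 0 to 2 counts on each VGAT plate against 652 and 174 on the double-positive plates. The 383 well positions found on every plate share barcodes by design of the plates. A second plate label in the cell names gives the other stage for 4 of the 7 VGAT plates and the same stage for both double-positive plates. No doublet caller was run, since single cells were sorted into wells.

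The rule held with a margin of several counts at E16 and a thinner one at P0. The summed counts of Sstr2, Ptprq, Grem1 and Crhbp exceeded the opposite sum by a median of 4.5 counts at E16 and 2 counts at P0, and at most by 27 and 25. Just inside the limit, 7 neurons at E16 and 27 at P0 exceeded by a single count. Just outside it were the 25 and 35 ties, of which 15 and 17 had no count of any of the 8 genes, and 11 and 6 wells at a difference of -1. Only 7 of the 76 and 3 of the 93 neurons had counts of all 4 genes, and 14 and 34 had counts of a single one. Crhbp was found in 66 and 63 neurons, Grem1 in 42 and 39, Sstr2 in 35 and 32, and Ptprq in 30 and 44. At least 1 gene of the opposite set had a count in 41 and 39 of them. Slc6a3 had no count in 52 and 69, 1 count in 19 and 18, and 2 counts in 5 and 6. Wells at 3 counts, just above that limit, numbered 9 and 6.

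**Figure D1:**
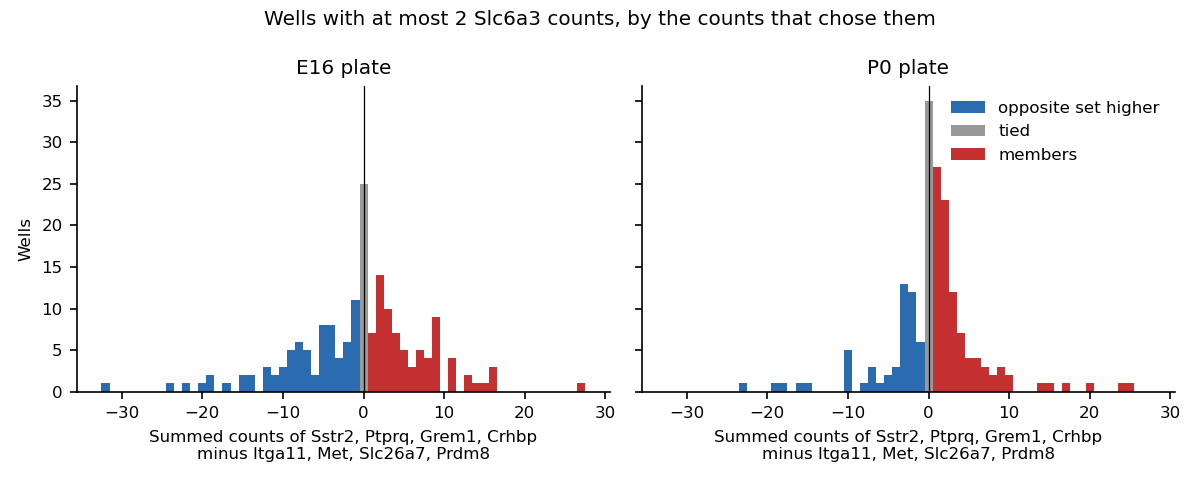
Histograms of the kept wells with at most 2 Slc6a3 counts on the E16 plate (left) and the P0 plate (right). The horizontal axis is the summed count of Sstr2, Ptprq, Grem1 and Crhbp minus that of Itga11, Met, Slc26a7 and Prdm8, and the vertical axis is the number of wells; the 76 and 93 wells above 0 are the Sstr2/Grem1 neurons, and 25 and 35 wells stand at 0.

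The genes that chose the cells were at lower levels in the other groups, as the rule fixes for the Met/Itga11 neurons. Sstr2 was at 94.9 CPM at E16 and 67.3 CPM at P0 in the Sstr2/Grem1 neurons, at 15 and 11.4 CPM in the Met/Itga11 neurons, and at 3.07 and 1.13 CPM in the Slc6a3-high neurons. Grem1 was at 95.9 and 88.4 CPM, against 26.0 and 34.3 CPM in the Met/Itga11 neurons. Crhbp was at 282 and 317 CPM, against 67.0 and 96.0 CPM there. Ptprq was at 71.4 and 123 CPM against 44.0 and 43.4 CPM. The 7 VGAT plates ranged from 3.34 to 18.2 CPM for Sstr2, from 5.49 to 12.6 CPM for Grem1, from 2.77 to 25 CPM for Crhbp and from 0.555 to 2.79 CPM for Ptprq. The further markers did not set the Slc6a3-low groups apart. Ebf2, a transcription factor of the COE family, was at 967 and 756 CPM against 735 and 539 CPM in the Met/Itga11 neurons. The vasopressin receptor gene Avpr1a was at 48.9 and 34.3 CPM against 58.0 and 38.9 CPM. Both were low in the Slc6a3-high neurons (Ebf2 at 70.2 and 60.8 CPM, Avpr1a at 3.51 and 6.76 CPM).

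Genes of the rule were also read in cells that the other genes had chosen. When Sstr2 and Ptprq against Itga11 and Met alone chose 57 and 69 wells, Grem1 was 3.10-fold higher at E16 and 1.79-fold higher at P0 than in the opposite wells. Crhbp was 1.47-fold and 1.45-fold higher. Slc26a7 stood at ratios of 0.136 and 0.0937, and Prdm8 at 0.284 and 0.209. When the other 4 genes chose 77 and 82 wells, Sstr2 was 3.01-fold and 1.53-fold higher and Ptprq 1.31-fold and 1.52-fold higher. Itga11 and Met stood at 0.349 and 0.234 at E16 and at 0.329 and 0.380 at P0. These genes were themselves chosen on these cells, so the ratios are a description and no independent evidence.

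The Sstr2/Grem1 neurons had Gad2 without Gad1. Gad2 was at 1692 CPM at E16 and 1656 CPM at P0, and the VGAT plates ranged from 494 to 632 CPM with a median of 549. Gad1 was at 0.978 and 25.1 CPM, which are 1 and 19 counts, and 16 of the 19 counts at P0 came from 1 well. The VGAT plates ranged from 798 to 1219 CPM for Gad1. Neither gene's plates overlapped between the groups, as was so for 7.37% of tested genes in the direction of Gad2 and 11.6% in that of Gad1. In edgeR's quasi-likelihood test over all genes, the log2 fold change over VGAT plates was 1.64 for Gad2 (SE 0.11, adjusted p = 1.88e-07) and -6.46 for Gad1 (SE 0.47, adjusted p = 3.64e-07). This comparison called 960 of 14090 genes, 6.81% (3.75% higher and 3.07% lower in the Sstr2/Grem1 neurons). The Met/Itga11 neurons were alike in Gad2 (1826 and 1428 CPM) and Gad1 (5.00 and 6.86 CPM), whereas the Slc6a3-high neurons had 56.1 and 113 CPM of Gad2.

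The vesicular GABA transporter was also compared. Slc32a1, the gene of the vesicular transporter and of the tdTomato sort of all groups, was at 396 and 407 CPM against 156 to 333 CPM on the VGAT plates. Its log2 fold change was 0.84 (adjusted p = 0.00457 in edgeR, and 0.326 without the E16 plate of double-positive cells). In the Slc6a3-high neurons Slc32a1 was at 84.7 and 96.9 CPM.

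Slc17a6 was found beside Gad2. It was at 145 CPM at E16 and 252 CPM at P0, and on the VGAT plates at 0 to 15 CPM (log2 fold change 5.68, SE 0.56, adjusted p = 7.81e-06). The other vesicular glutamate transporter genes were near the detection limit, with 0 and 1 counts of Slc17a7 and 3 and 6 counts of Slc17a8. After thinning each cell to 4000 counts, Gad2 was detected in 97.4% of 76 cells at E16 (90.8 to 99.7) and 97.7% of 87 at P0 (91.9 to 99.7), with 6 shallower cells left out. Slc17a6 was detected in 40.8% (29.6 to 52.7) and 59.8% (48.7 to 70.1), each time in cells that also had Gad2. Slc32a1 and Slc17a6 were found together in 27.6% and 47.1%. As a background, VGAT cells had a median share over plates of 0.671% for Slc17a6, and Slc6a3-high neurons of 5.43% and 13.3%, at median depths of 17815 and 9298 counts. The trait was shared with the Met/Itga11 neurons, of which 48.6% and 68.2% had Slc17a6 and 47.2% and 56.8% had it beside Gad2. Without thinning, 69.7% and 69.9% of the Sstr2/Grem1 neurons had a Slc17a6 count.

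**Figure D2:**
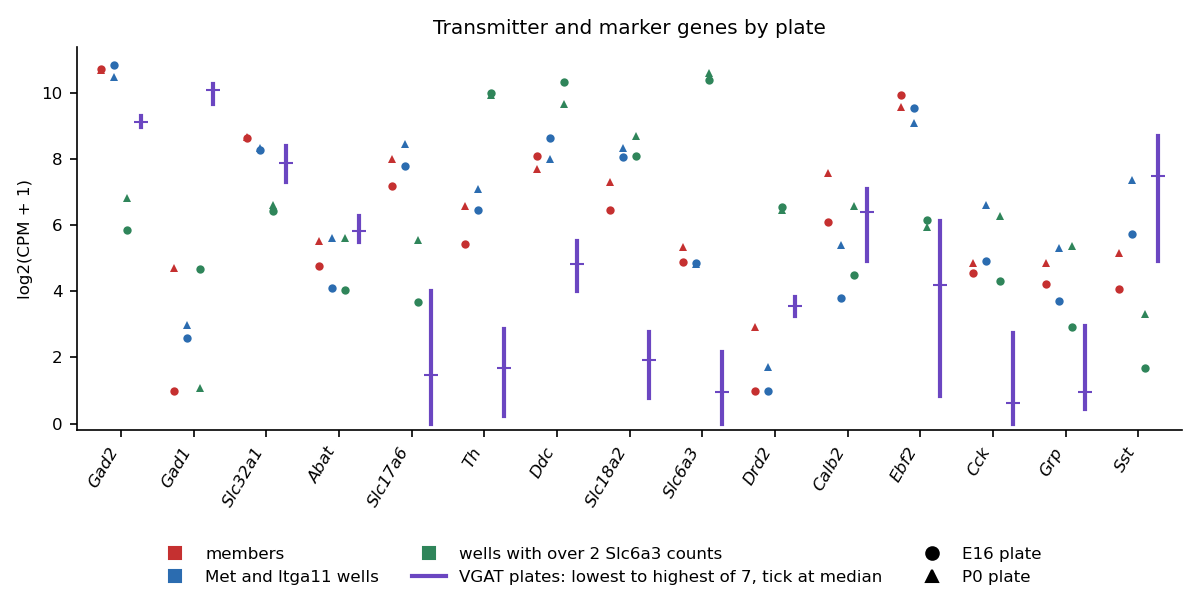
Levels of transmitter and marker genes as log2(CPM + 1) of summed counts, by gene on the horizontal axis, for the Sstr2/Grem1 neurons (members), Met/Itga11 neurons and Slc6a3-high neurons on the E16 plate (circles) and the P0 plate (triangles). Bars span the 7 VGAT plates with a tick at the median; Gad2 lies above the bar and Gad1 below it in the Sstr2/Grem1 neurons of both plates.

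**Figure D3:**
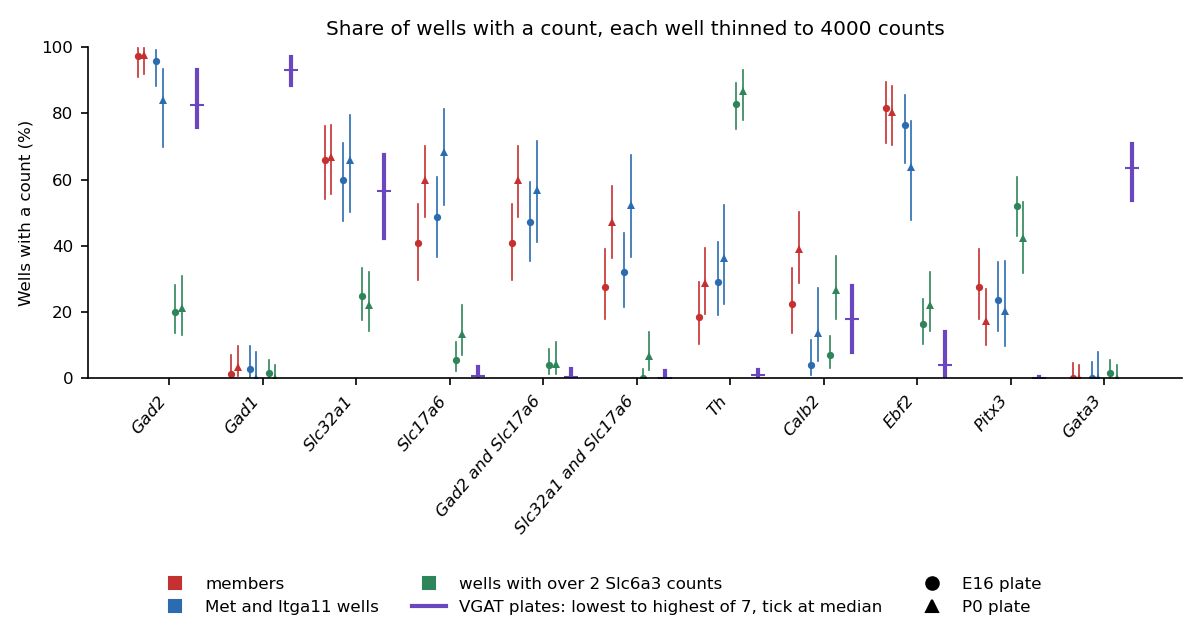
Share of cells with a count of each gene or pair of genes after thinning to 4000 counts, in percent, with exact 95% intervals for the 3 groups of double-positive cells on each plate and the range over the 7 VGAT plates. The Sstr2/Grem1 neurons had Gad2 in 97.4% and 97.7% of cells, Gad1 in 1.32% and 3.45%, and Gata3 in none.

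A low level of dopamine genes was kept. Th, the rate-limiting enzyme of dopamine synthesis, was at 42.1 and 95 CPM, above the VGAT plates (0.185 to 6.24 CPM, log2 fold change 4.69, adjusted p = 0.000123) and far below the Slc6a3-high neurons (1014 and 972 CPM). The vesicular monoamine transporter gene Slc18a2 was at 86.1 and 157 CPM against 0.697 to 5.84 CPM on VGAT plates (adjusted p = 8.98e-08). Ddc, which makes dopamine from L-DOPA, was at 270 and 206 CPM against 15 to 45.2 CPM (adjusted p = 3.64e-07). Gch1, which supplies the cofactor of Th, and Aldh1a1, an aldehyde dehydrogenase, were the further 2 of the 5 genes called higher among 12 tested genes of dopamine handling, and none was lower. Over this list the median log2 fold change was 0.82, against -0.02 over all genes. Drd2, the dopamine autoreceptor, was at 0.978 and 6.60 CPM against 8.51 to 13.2 CPM (adjusted p = 0.0660). Thinned shares with a Th count were 18.4% and 28.7%, against a median of 1.03% on VGAT plates.

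Taken singly, the levels of Gad2, Gad1, Slc32a1, Slc17a6, Th, Slc18a2 and Ddc lay outside the range of the 7 VGAT plates on both plates. Over all tested genes, the same held for 7.37% in the higher and 11.6% in the lower direction. For each of these 7 genes the two-sided exact permutation p was 0.0556 (0.0556 after adjustment over the 7), the smallest that 2 against 7 plates allow. The ratio of means was 2.96 for Gad2, 1.69 for Slc32a1, 49.1 for Slc17a6, 28.8 for Th, 38.6 for Slc18a2 and 7.98 for Ddc, and Gad1 was 81.7-fold lower.

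All 8 tested transcription factors of the dopamine lineage were higher than on the VGAT plates, Pitx3 among them as the gene of the GFP sort. Lmx1a was at 364 and 178 CPM against 0 to 3.90 CPM (log2 fold change 7.99, adjusted p = 4.32e-09). Lmx1b was at 404 and 335 CPM against 0 to 7.24 CPM (7.74, adjusted p = 1.59e-08). Nr4a2, En1, En2, Foxa1 and Foxa2 had log2 fold changes of 3.45, 2.76, 3.42, 4.43 and 2.17, and the list had a median of 3.94. Within the double-positive plates, 1 of the 8 was at least 2-fold different from each of the other groups on both plates. Pitx3 was at 68.5 and 43.6 CPM against 200 and 113 CPM in the Slc6a3-high neurons. Foxa1, a forkhead factor of the floor plate, was at 154 and 177 CPM against 692 and 539 CPM in the Met/Itga11 neurons, at ratios of 0.222 (0.185 to 0.264) and 0.328 (0.263 to 0.407).

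Selector factors of midbrain GABA neurons were at or near 0. Of 10 tested, 7 were lower than on the VGAT plates and none was higher. Gata3 had no count in 169 cells and 426 to 715 CPM on the VGAT plates, whose mean was at least 335-fold higher than the level of 3 counts over both plates. Gata2, also at 0 counts, was at least 58.5-fold lower by the same measure, and Sox14 at least 45.1-fold lower. Tal1 had 2 and 1 counts (log2 fold change -6.47, adjusted p = 2.63e-08). Zfpm2, Lhx1 and Lhx5 were the others, at log2 fold changes of -5.30, -4.88 and -5.52. The median over the list was -5.41, and -5.40 with genes without counts set to their bound. Six3, Irx1, Irx5 and Slc30a3 also had no count. They were among the 10 genes furthest below the VGAT plates, by at least 240-fold, 23.7-fold, 17.5-fold and 64.0-fold.

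**Figure D4:**
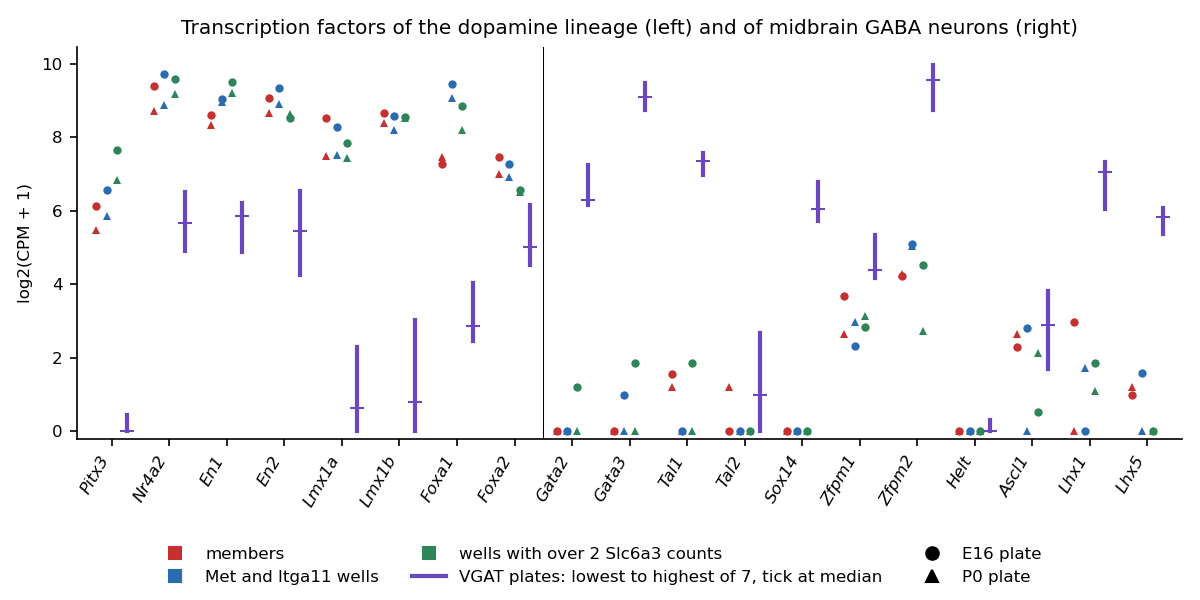
Levels of 8 transcription factors of the dopamine lineage (left of the line) and 11 of midbrain GABA neurons (right of it), as log2(CPM + 1) of summed counts on the vertical axis, with groups, plates and VGAT ranges drawn as for the transmitter genes. The Sstr2/Grem1 neurons lie above the range of the VGAT plates for all 8 on the left and below it for Gata2, Gata3, Tal1, Sox14, Zfpm1, Zfpm2, Lhx1 and Lhx5, of which Zfpm1 did not pass the test.

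Other transcription factors gave a mixed picture, with 6 of 30 higher and 13 lower than on the VGAT plates, of which 5 and 7 were called in each of 20 alternative fits. Pbx3, a partner of Hox and Meis proteins, was higher by 1.97 on the log2 scale, Foxp2 by 1.90 and the zinc finger factor Bcl11a by 1.70 (454 and 329 CPM against 76.3 to 178 CPM). Etv1 was higher by 3.47, and Klf7 by 0.51 (adjusted p = 0.0310, with 0.290 and 0.219 without the E16 or the P0 plate). Lower were Meis2 at 3 and 0 counts (log2 fold change -8.59, adjusted p = 4.39e-07), the orphan receptors Nr2f1 (-3.45) and Nr2f2 (-3.16), Zfhx3 (-2.12), and Onecut1 at 0 counts against 8.32 to 15.6 CPM. Among 5 tested members and cofactors of the COE family, Ebf1, Ebf3 and Zfp423 were higher and Ebf4 lower. Ebf3 was at 1611 and 1332 CPM against 56.2 to 149 CPM (log2 fold change 4.2, adjusted p = 1.42e-09). For Ebf1 the adjusted p was 0.00118, and 0.201 with stages by the second plate label. For Zfp423 it was 0.00259, and 0.327 without the E16 plate of double-positive cells.

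Genes used to tell VTA from SNc neurons did not place the cells. Otx2, a VTA factor, was at 34.2 and 11.9 CPM against 21.5 and 12.4 CPM in the Slc6a3-high neurons, and lower than on the VGAT plates (64.6 to 114 CPM, log2 fold change -1.96, adjusted p = 0.000179). Calb1 was at 15.7 and 29.0 CPM against 39.9 and 220 CPM in the Slc6a3-high neurons. Of 13 VTA-associated genes tested against the VGAT plates, 4 were higher (Slc17a6, Cck, Grp and Adcyap1) and 4 lower (Otx2, Neurod6, Nfib and Sorcs3). Without the E16 plate of double-positive cells the adjusted p was 0.161 for Cck, 0.0645 for Grp and 0.249 for Neurod6, and without the P0 plate 0.117 for Adcyap1. Against the Slc6a3-high neurons, 2 of 7 VTA-associated genes with enough counts were at least 2-fold higher (Slc17a6 and Calb2) and 1, Calb1, was lower. The SNc-associated genes Sox6, Aldh1a1 and Ndnf were lower than in the Slc6a3-high neurons on both plates, Sox6 with 15.7 and 10.6 CPM against 367 and 187 CPM. Of 12 SNc-associated genes with enough counts for that comparison, 9 were at least 2-fold lower and 1, Igf1, was higher. Slc6a3, whose counts split these groups, is among the 9 by the rule. Over all genes in that comparison, 2.41% were lower and 2.7% higher. Against the VGAT plates, 4 of 11 SNc-associated genes were higher (Aldh1a1, Slc10a4, Kcnj6 and Serpine2) and 2 lower (Satb1 and Lmo3). Kcnj6, Serpine2 and Lmo3 did not keep their calls in every alternative fit, and Lmo3 changed direction with no limit on Slc6a3. A position in the VTA is therefore not used as a name here.

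Against the Met/Itga11 neurons, 42 of 5321 genes were at least 2-fold higher on both plates and 42 at least 2-fold lower (0.789% each, with at least 30 counts in the higher group). The higher include 3 genes of the rule and the lower 4, whose direction the choice of cells fixes. Outside the rule, Calb2, the calcium-binding protein calretinin, was at 66.5 and 187 CPM against 13.0 and 41.1 CPM, ratios of 5.12 (2.8 to 10.1) and 4.56 (2.78 to 7.91). Cntn3, a contactin of the cell surface, was at 295 and 201 CPM against 55.0 and 52.6 CPM, ratios of 5.37 (4.02 to 7.30) and 3.82 (2.45 to 6.20). Unc5d, a netrin receptor of the repulsive Unc5 family, was at 582 and 383 CPM against 157 and 70.8 CPM, ratios of 3.71 (3.10 to 4.45) and 5.40 (3.72 to 8.10). Calb2 and Unc5d did not differ from the VGAT plates in edgeR's test (adjusted p = 0.403 and 0.796). Bcl11a was 2.47-fold and 3.27-fold higher, the receptor tyrosine kinase gene Alk 2.46-fold and 2.09-fold, and Gfra1, the co-receptor of GDNF, 2.13-fold and 2.8-fold. Sulf1, which trims sulfate from heparan chains, was 2.87-fold and 3.49-fold higher, and Enc1 3.37-fold and 2.8-fold. Galnt13, L3mbtl4, Cbln4, Kctd16, Cpne4, Zdbf2, Pcp4 and Arhgap24 complete the 15 genes with the largest ratios, together with Sstr2 and Crhbp of the rule.

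Lower than in the Met/Itga11 neurons were, besides Met, Itga11, Prdm8 and Slc26a7, genes of several kinds. Zeb2, a zinc finger repressor, was at 104 and 127 CPM against 539 and 373 CPM, ratios of 0.192 (0.155 to 0.237) and 0.340 (0.262 to 0.440). Nfia stood at ratios of 0.409 and 0.394, Nfib at 0.279 and 0.314 and Nfix at 0.348 and 0.416, each encoding a nuclear factor I protein. The family as a whole was not tested. Slc18a2 was at 0.327 and 0.491. Kcnip4, a subunit of A-type potassium channels, was at 1072 and 1663 CPM against 2719 and 4251 CPM. The cadherin gene Cdh6 stood at 0.236 and 0.467, and the follistatin-like gene Fstl5 at 0.170 and 0.174. Sst, the peptide somatostatin, was at 15.7 and 34.3 CPM against 52.0 and 165 CPM, where 48 of 72 counts of the Met/Itga11 neurons at P0 came from 1 well. Etl4, Nr3c2, Adgrv1, Wdpcp, Megf11, Fabp7, Mob3b, 2900064K03Rik and Zfp804b were also among the 15 genes with the lowest ratios. In Fabp7, 315 of 367 counts of the Met/Itga11 neurons at E16 came from 1 well.

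Near the limit of the rule the cells were mixed. At E16, Unc5d was at 682 CPM in the 55 neurons with a margin of 3 or more counts, at 161 CPM in the 14 with a margin of 2, at 422 CPM in the 7 with a margin of 1, at 238 CPM in ties and at 56.3 CPM in wells at -1. At P0 the same groups were at 572, 183, 137, 90.9 and 81.7 CPM. Zeb2 ran the other way, with 76.4, 181, 201, 352 and 531 CPM at E16 and 39.0, 262, 202, 332 and 736 CPM at P0. Calb2 followed no such order, with 75.1, 60.2, 10.0, 29.3 and 8.04 CPM at E16 and 149, 214, 251.4, 174 and 27.2 CPM at P0. Gad2 stayed between 1284 and 1826 CPM in all these groups. When Grem1 and Crhbp against Slc26a7 and Prdm8 alone chose the cells, 11 of 13 named higher genes and 9 of 11 named lower genes outside the rule were still at least 2-fold different on both plates, and 18 of the 42 higher and 26 of the 42 lower genes were counted again. These wells largely overlap with the others, so this is a description only.

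**Figure D5:**
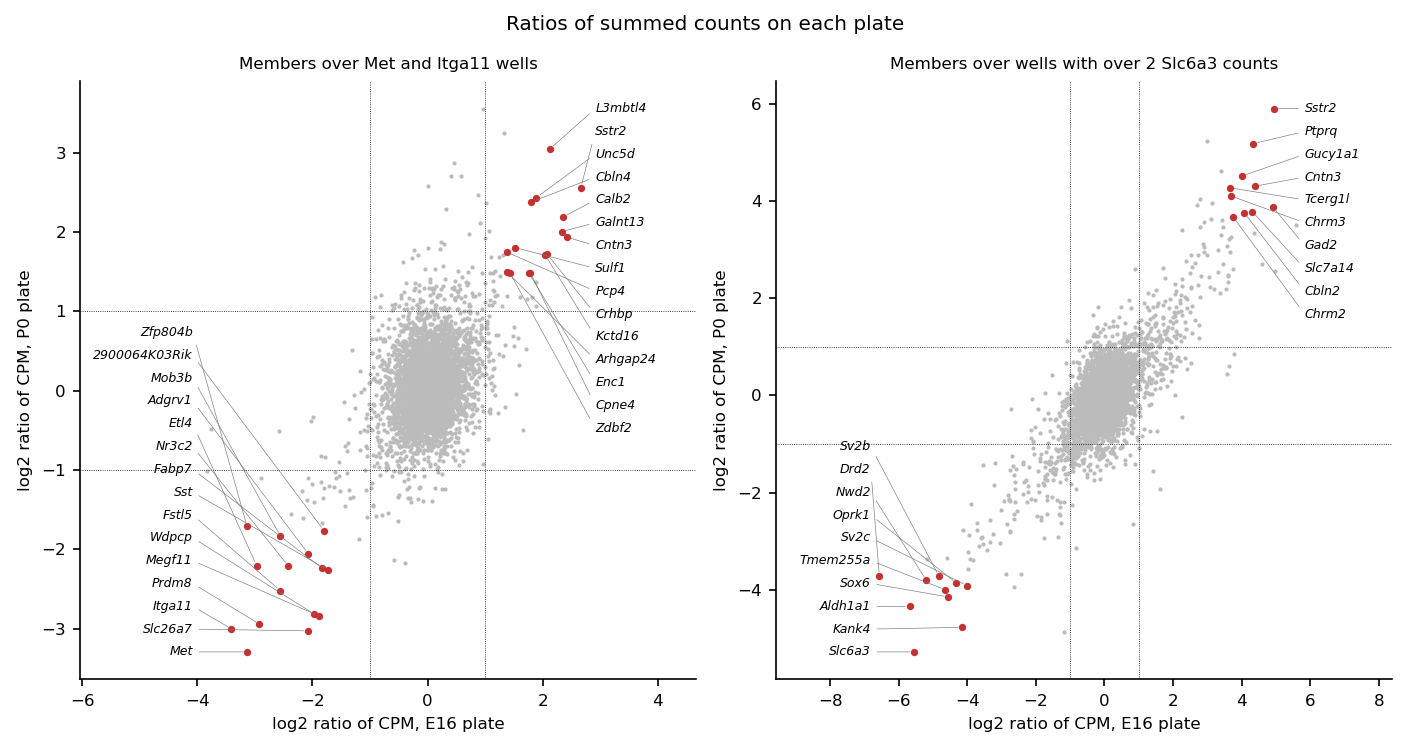
Ratios of CPM between the Sstr2/Grem1 neurons (members) and the Met/Itga11 neurons (left) or the Slc6a3-high neurons (right), as log2, on the E16 plate (horizontal) and the P0 plate (vertical). Each dot is a gene with at least 30 counts in the higher group of each plate, dotted lines mark 2-fold, and the named red dots are the 15 (left) or 10 (right) genes with the largest ratios in each direction, genes of the rule included.

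The distance to the Slc6a3-high neurons was larger. Here 169 of 6256 genes were at least 2-fold higher on both plates (2.7%) and 151 lower (2.41%). The higher include Sstr2, Ptprq, Grem1 and Crhbp of the rule, and the lower include Slc6a3. Gad2 was 30.1-fold (25.2 to 36.3) and 14.7-fold (12.0 to 18.2) higher, Cntn3 21.1-fold and 19.8-fold, and the muscarinic receptor genes Chrm3 and Chrm2 12.9-fold and 13.6-fold at E16 and 17.2-fold and 12.7-fold at P0. Gucy1a1, Slc7a14, Cbln2 and Tcerg1l were the other genes outside the rule among the 10 largest. Zfhx3 stood at 0.161 and 0.172. Aldh1a1 was at 80.2 and 198 CPM against 4111 and 4005 CPM, Th at ratios of 0.0415 and 0.0978, and Drd2 at 0.0106 and 0.0761. The kappa opioid receptor gene Oprk1 had 4 and 0 counts against 78.1 and 57.4 CPM. Kank4, Tmem255a, Sv2b, Sv2c and Nwd2 were also among the 10 lowest. Of 10 dopamine handling genes with enough counts, 7 were lower and none was higher. Slc6a3, whose counts split these groups, is among the 7 by the rule.

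Genes of the BMP pathway other than Grem1, which chose the cells, were compared with the VGAT plates. Fst, which binds activins and BMPs, was at 49.9 and 76.6 CPM against 0 to 7.66 CPM on the VGAT plates (log2 fold change 5.12, adjusted p = 8.71e-06), with its counts in 8 and 12 cells. Fst counts were not particular to the Sstr2/Grem1 neurons, which had 51 in 76 cells at E16 and 58 in 93 at P0. In the Met/Itga11 neurons, 50 Fst counts at E16 and 25 at P0 were found in 6 of 74 and 7 of 51 cells. Over the Slc6a3-high neurons, Fst stood at ratios of 2.15 at E16 and 0.562 at P0. Nog, noggin, was at 48.9 and 37.0 CPM against 3.70 to 12.9 CPM on the VGAT plates (2.49, adjusted p = 7.82e-05). Of 20 tested pathway genes, 4 were higher (Fst, Nog, Bmp6 and Bmp7) and Id4, a target of BMP signals, was lower (-1.70, adjusted p = 3.85e-06), with a list median of -0.04. Without the E16 plate of double-positive cells the adjusted p of Bmp7 was 0.161, and without the P0 plate that of Bmp6 was 0.148. Receptor genes such as Bmpr2 (172 and 143 CPM against 169 to 205 CPM) did not pass the test.

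Peptides and receptors related to the genes of the rule were read as well, and Sstr2, Crhbp and Avpr1a themselves are high by the choice of cells or as its markers. Crh, Ucn and Ucn3 had no count, and Crhr1 had 16 and 18 counts (log2 fold change 1.09, adjusted p = 0.0463). The call for Crhr1 missed the threshold in 15 of 20 alternative fits. Of the somatostatin receptor genes, Sstr2 had 97 and 51 counts, and Sstr1, Sstr3, Sstr4 and Sstr5 together 2 and 1. Avp had no count. Of 16 tested neuropeptide genes, Cck, Grp and Adcyap1 were higher, and Sst, Penk, Pnoc and Nxph1 lower. Pnoc, prepronociceptin, had 0 and 2 counts against 108 to 189 CPM on the VGAT plates (log2 fold change -6.86, adjusted p = 3.21e-07). Nxph1, a ligand of neurexins, was at 17.6 and 31.7 CPM against 630 to 962 CPM (-4.86, adjusted p = 3.60e-08). The calls for Sst (0.393 and 0.107) and Penk (0.0567 and 0.0839) did not pass without the E16 or the P0 plate. Of 23 tested neuropeptide receptor genes, 5 were higher (Npy1r, Tacr1, Crhr1, Hcrtr1 and Mc3r) and 1 lower (Hcrtr2), each of which missed the threshold when 1 or the other double-positive plate was left out. The neuropeptide Y receptor gene Npy1r was at 53.8 and 31.7 CPM against 1.85 to 10.4 CPM (3.2, adjusted p = 9.89e-05, and 0.0762 without the E16 plate).

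Guidance and adhesion genes changed in both directions against the VGAT plates, 5 of 37 guidance genes higher and 6 lower, of which 3 and 5 were called in every alternative fit. Ntn1, netrin-1, was at 284 and 318 CPM against 4.71 to 29.5 CPM (log2 fold change 4.75, adjusted p = 4.09e-07). Slit2 (0.96) and Epha5 (1.22) were also higher, as were Plxnc1 and Nrp2 (adjusted p = 0.0753 and 0.781 without the E16 plate of double-positive cells), while Epha4 (-2.61), Epha7 (-1.76), Ephb1 (-1.04), Nrp1 (-1.74) and Sema3c (-3.32) were lower. Of 25 adhesion genes tested, 5 were higher and 8 lower, but only 2 (Cdh4 and Pcdh10) and 4 (Pcdh9, Pcdh19, Cntn4 and Cntn6) were called in every alternative fit. Pcdh10 was higher by 1.36, and Pcdh9 was lower by 3.11 on the log2 scale (163 and 370 CPM against 1911 to 3271 CPM), as were the contactin genes Cntn4 (-3.05) and Cntn6 (-2.38). For Cntn3 the log2 fold change was 1.16 (adjusted p = 0.000745, and 0.198 without the E16 plate).

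Growth factor receptors and receptors of transmitters followed. Erbb4, the neuregulin receptor, was at 5368 and 4345 CPM against 371 to 561 CPM on the VGAT plates (log2 fold change 3.56, adjusted p = 6.74e-10). Ret, the GDNF receptor, was at 159 and 238 CPM against 11.2 to 27.5 CPM (3.40, adjusted p = 2.11e-08). Of 14 such genes, 4 were higher and 3 lower, and Erbb4, Ret and, among the lower, Gfra2 were called in every alternative fit. Wnt7b, a secreted Wnt ligand, was at 349 and 255 CPM against 0 to 4.45 CPM (8.46, adjusted p = 2.58e-09). Of 42 transmitter receptor genes, 5 were higher and 7 lower, of which 4 and 2, named next, were called in every alternative fit. The nicotinic subunit genes Chrnb3 and Chrna6, which lie in receptors of dopamine neurons, were higher by 8.51 and 7.63, the glutamate receptor genes Gria3 and Grid1 by 2.31 and 1.40, and Gabra2 (-1.49) and Glra2 (-1.93) were lower. Of 31 channel genes, 5 were higher and 3 lower, and none of these was called in every alternative fit. Among these Kcnq5 was lower by 1.70 on the log2 scale (26.4 and 44.9 CPM against 98.4 to 132 CPM, adjusted p = 4.05e-05, and 0.340 in spliced counts) and Scn8a higher by 0.79 (adjusted p = 0.000698, and 0.05 without the E16 plate).

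Of 12 immature neuron markers, 0 passed edgeR's test against the VGAT plates after adjustment, 1 had an unadjusted p under 0.05, and 1 passed in DESeq2. Of 12 mature neuron markers 1 was higher, though not in every alternative fit, and 1 lower, the latter Syt1, the calcium sensor of synaptic vesicles (-0.93, adjusted p = 0.000281).

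From E16 to P0, with 1 plate at each stage and no test, 167 of 6725 genes were at least 2-fold higher (2.48%) and 202 lower (3%). Htr2c, the serotonin 2C receptor gene, went from 10 counts in 6 cells to 111 counts in 37, a ratio of 15 (7.84 to 32.1). In the Met/Itga11 neurons it was at 139 CPM already at E16 and at 297 CPM at P0. Calb2 had a ratio of 2.82 (2.10 to 3.82) and the cadherin gene Cdh9 one of 4.05 (2.34 to 7.33). Lmx1a was lower at P0, at a ratio of 0.490 (0.399 to 0.598), and Nefm, the medium neurofilament chain, at 0.229 (0.0993 to 0.468). Several lower genes rest on single cells: 23 of 31 Sox9 counts and 89 of 105 Fabp7 counts at E16 were in 1 cell each. With every cell thinned to 4000 counts, 120 genes were higher and 81 lower at P0, and 54 of the 167 and 23 of the 202 were among them.

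Markers of other cells were counted over whole lists. Of 10 genes of astrocytes and radial glia, 203 counts were found at E16, 146 of them in 1 cell, and 69 in 25 cells at P0. Of 7 oligodendrocyte genes there were 114 counts in 37 cells (54 in 1 cell) and 57 in 27 cells. Of 7 microglia genes, 5 were at 0, C1qa, P2ry12 and Aif1 among them, with 7 and 4 counts in all. Vascular genes had 26 counts (21 in 1 cell) and 1, and blood genes 7 and 3, with Hbb-bs and Hbb-bt at 0. Lists of hypothalamic (Dlx1, Dlx2, Dlx5, Sim1, Nkx2-1) and hindbrain genes (Hoxb2, Hoxb3, Hoxa2, Slc6a5) had no count. A list of red nucleus and glutamate neurons had 166 counts in 55 cells at E16 and 191 in 65 at P0, of which 148 and 191 were Slc17a6, and Pou4f1, Isl1 and Barhl1 gave 6, 1 and 4 counts at E16 and none at P0. The serotonin genes Tph2, Fev and Slc6a4 were at 0 on both plates, and Chat, Slc18a3 and Phox2a of cholinergic and motor neurons were at 0 too. The part of these cells in the results was not tested.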

How the data were processed

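Ventral midbrain cells were sorted into 9 plates and sequenced by SORT-seq. Per the study's methods, the authors aligned reads with STAR to GRCm38 (mm10) and deposited expected counts, molecules per gene and well corrected for shared molecular barcodes (51.7% of non-zero values were not whole), which were rounded here. Strandedness of counting was not given in the sources used here. Groups came from the plate titles. Members and gene lists were chosen with earlier results of these data known.

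The plate was the replicate. Summed counts of the Sstr2/Grem1 neurons (2 plates) and of all VGAT cells (7 plates) were compared with edgeR 4.0.16 in R 4.3.3 (TMM factors, filterByExpr with a minimum count of 10, quasi-likelihood test, stage as covariate, Benjamini-Hochberg adjustment, threshold 0.05), after the steps were tested on simulated data. Log2 fold changes and adjusted p-values against VGAT plates in the text come from this fit. Comparisons within the double-positive plates are ratios of CPM with exact conditional binomial 95% intervals and no test. A gene was counted when it differed at least 2-fold on both plates with 30 counts in the higher group, and a group without counts was set to 3 counts. Named genes were the 15 (Met/Itga11 neurons) or 10 (other comparisons) with the largest change, and members of the lists. Python 3.11.15, numpy 2.4.6, scipy 1.17.1 and pandas 2.3.3 were used. Alternatives covered normalization, filters, spliced counts, limits of the rule, thinning and leaving out each plate. Some genes are not reported here.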

Additional observations from a re-analysis of the deposited data

Results flagged for a closer look

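Among 25 sets of 4 E16 VGAT plates, 2 had a plate apart from the others by Dixon's criterion (0.829), where chance gives about 1 in 20. Lmx1a was at 3.5 CPM on VGAT E16 replicate 1, with a median of 0.675 CPM over the 4 plates. Gata2 was at 144 CPM on the same plate, with a median of 73.8 CPM.

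For 5 genes the ratio of the Sstr2/Grem1 neurons to another group lay at least 1.5-fold on opposite sides at E16 and P0, with intervals that leave out 1. With 1 plate per stage the difference between stages was not tested. Over the Met/Itga11 neurons, the netrin receptor gene Unc5c stood at 0.511 (0.435 to 0.599) at E16 and 1.57 (1.25 to 2.00) at P0. The cadherin gene Cdh18 stood at 0.528 (0.352 to 0.781) and 2.27 (1.49 to 3.57), but 38 of the 76 Cdh18 counts of the Met/Itga11 neurons at E16 came from 1 cell, and the other 38 stand beside 41 in the Sstr2/Grem1 neurons. Over the Slc6a3-high neurons, Fst stood at 2.15 (1.43 to 3.21) and 0.562 (0.403 to 0.774), and Cdh9 at 0.467 (0.264 to 0.782) and 2.18 (1.36 to 3.55). Fabp7 stood at 3.08 (2.27 to 4.2) and 0.264 (0.149 to 0.444), and 89 of its 105 counts in the Sstr2/Grem1 neurons at E16 came from 1 cell.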

How the results depend on the processing

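Against the VGAT plates, leaving out 1 plate gave 433 to 1038 called genes against 960. The lowest was without the E16 plate of double-positive cells, and 559 were called without the P0 one. Without a filter on low counts 1322 genes were called, 45.0% of them higher against 55% (median log2 fold change -0.37 over all genes). DESeq2 called 1042. A replicate block called 655, of which 597 were among the 960; same-numbered VGAT plates correlated at 0.0425, 0.0786 and 0.0525, so the numbers do not pair the plates. Stages by the second plate label, chosen after seeing the data, gave 762. Of the 960 genes, 3 of 915 tested in spliced counts changed direction there, and 5 of 958 did with no limit on Slc6a3. Of 2913 values of 146 single genes under alternatives, 176 no longer passed the threshold and 1 reversed, Lmo3, at 0.23 with no limit on Slc6a3 (also chosen after seeing the data). The cause was not tested. The number of Sstr2/Grem1 neurons ran from 121 with no Slc6a3 count allowed to 210 without a limit.

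Within the double-positive plates, genes higher and lower than in the Met/Itga11 neurons numbered 23 and 22 with cells thinned to 4000 counts (13 and 17 of them among the 42 and 42), 93 and 69 with 10 counts as the minimum, 127 and 93 at 1.5-fold, 9 and 17 at 3-fold, and 27 were higher where Grem1 and Crhbp against Slc26a7 and Prdm8 chose the cells. Against the Slc6a3-high neurons the numbers were 100 and 84 thinned, 295 and 228 with 10 counts, 308 and 316 at 1.5-fold and 87 and 74 at 3-fold, and 104 were higher in spliced counts. Between stages, 81 were lower at P0 after thinning, and 550 were higher and 631 lower with 10 counts. The share with Slc17a6 at E16 was 69.7% without thinning and 64.9% thinned to 8000 counts (57 cells, 19 left out), and at P0 88.2% at 8000 (34 cells, 59 left out). With Gad2 beside it, the shares were 69.7%, 63.2% and 88.2%. Depth limits genes near 30 counts, and P0 cells held fewer counts than E16 cells.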
